A study of Homo sapiens with 4 samples.

Results

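SOX transcription factors bind DNA through an HMG box, a domain shared with the testis-determining factor SRY, and act as lineage switches in the developing brain, neural crest and cartilage. Genes of the family were read out in U87MG, an established human glioblastoma cell line, through the 10 members SOX2, SOX4, SOX5, SOX6, SOX8, SOX9, SOX10, SOX11, SOX12 and SOX13, chosen by gene symbol in the deposited count files. The files held a row for each of the 10 genes, 9 of them in all 4 libraries, among 29387 genes present in all 4. SOX11 was listed for 1 pair of libraries only. A minimum on counts left 5 members, SOX4, SOX5, SOX9, SOX12 and SOX13, among 14231 genes tested. Tested members are therefore the better measured ones and do not stand for all 10.

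Invasive populations 1 and 2 were U87MG cells that had invaded organotypic brain slices (living sections of brain kept in culture), and controls 1 and 2 were poorly invasive U87MG cells isolated from the same kind of culture. All 4 populations descend from parental cells grown in medium with serum. They spent 1 week on slices, in a neural stem cell medium that held the growth factors FGF and EGF, followed by 3 to 5 days of expansion in vitro. Per the design text, each invasive population was analysed with the control of the same number, here called pair 1 and pair 2. Every population gave 1 mRNA library, of 13829871 to 17817756 counts, and all come from a single tumour line. The design text calls the invasive populations clones and says that they were derived independently. The sources used here do not state whether each grew from a single cell, nor the species of the slices. Of 3 genes listed as markers of the line, VIM, which encodes vimentin, and CD44, a hyaluronan receptor, were abundant. VIM had at least 7336 CPM (counts scaled to 1000000 per library) in each library. CD44 had 1554 and 1755 CPM in invasive 1 and 2, against 2146 and 2162 CPM in control 1 and 2. NES, the remaining one, had 33.7 and 15.7 CPM in invasive 1 and 2, against 41.5 and 19.5 CPM in control 1 and 2.

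The family is divided by the sequence of the HMG box. SOX2, of the SoxB1 group, keeps neural stem cells uncommitted and is a known stem cell factor of glioblastoma. SOX4, SOX11 and SOX12 form the SoxC group, which acts in neuronal precursors. SOX5, SOX6 and SOX13 form the SoxD group, which lacks a transactivation domain of its own and works through partner proteins. SOX8, SOX9 and SOX10 form the SoxE group of glia, neural crest and cartilage.

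SOX12 and SOX9 had the highest levels per kilobase of exon among the members in each library, followed by SOX13 in 3 libraries and by SOX5 in control 2. SOX2, SOX6, SOX8, SOX10 and SOX11 had at most 6 counts in any library. Between invasive and control populations, SOX5 had the largest difference, with a log2 fold change of −0.99 ± 0.34 (SE). It was below both controls in both invasive libraries, but did not pass the adjusted threshold. None of the 5 tested members passed, against 0.274% of all tested genes, 34 of them higher and 5 lower. The test was edgeR's quasi-likelihood test, in which the pair was a block, and the threshold a Benjamini-Hochberg adjusted p of 0.05. DESeq2 also called 0 of the 5, against 1.39% of the genes to which it gave an adjusted p. At an unadjusted p under 0.05 there was 1 member, SOX5, which was lower, against 18.2% of all tested genes in either direction and 8.41% lower. The log2 fold changes of the 5 had a median of 0.15, against 0.005 over all tested genes. The 5 did not share a direction: SOX4, SOX12 and SOX13 had positive and SOX5 and SOX9 negative fold changes. Within pairs, 4 of the 5 had the same sign in both, against 65.3% of all tested genes, and SOX9 did not.

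**Figure D1:**
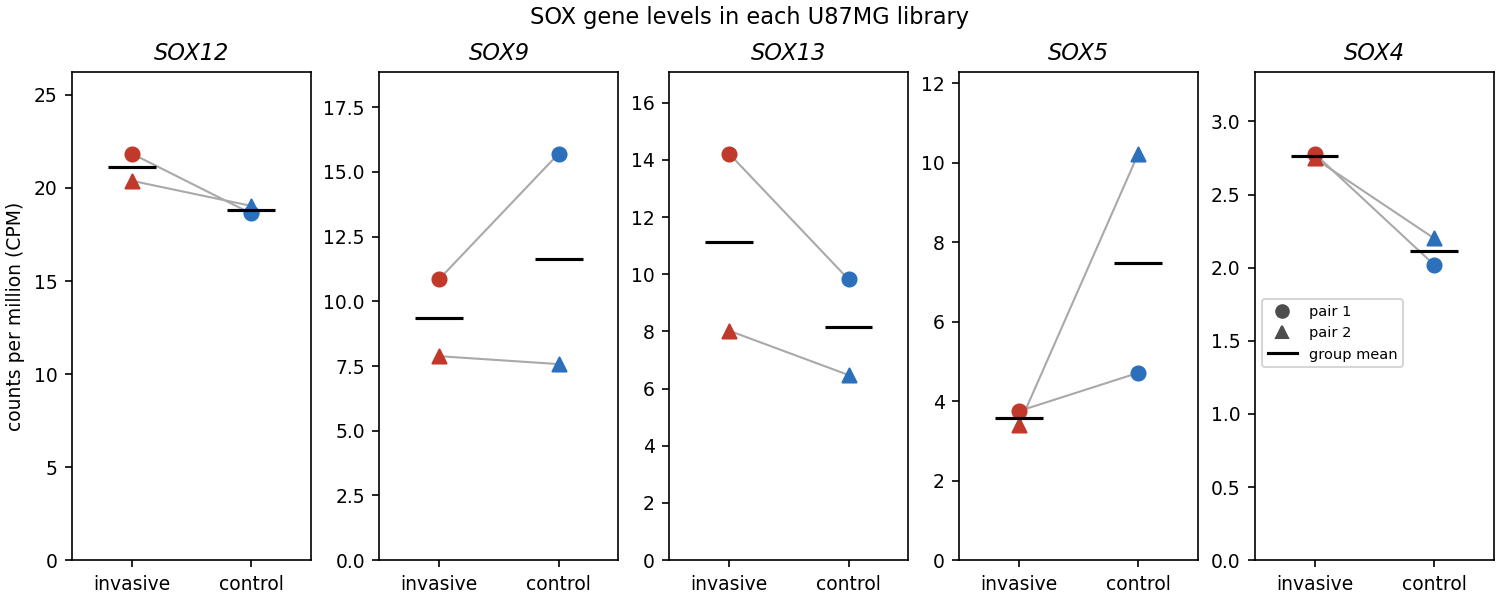
Level of the 5 tested SOX genes in CPM in each library, invasive populations left and controls right, with lines joining the libraries of a pair and black bars for the group means. SOX5 sits at 3.75 and 3.40 CPM in the invasive libraries and at 4.71 and 10.2 CPM in the controls, while SOX9 is lower in the invasive library of pair 1 and level between the groups in pair 2.

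In the SoxD group, SOX5 had 3.75 and 3.40 CPM in invasive 1 and 2 (58 and 47 counts), against 4.71 and 10.2 CPM in control 1 and 2 (84 and 158 counts). SOX5 assists SOX9 at cartilage genes and times the production of oligodendrocytes and neurons in mice. The 2 invasive libraries were close to each other, control 1 was slightly higher, and control 2 stood well above the other 3. The means were 3.57 ± 0.25 CPM in invasive populations and 7.47 ± 3.90 CPM in controls (SD, n = 2 each), with an unadjusted p of 0.0250 and an adjusted p of 0.217 in edgeR's quasi-likelihood test. Within pairs, the invasive level was 0.795 of the control's in pair 1 and 0.332 of it in pair 2. Exact 95% counting intervals (Clopper-Pearson) were 0.559 to 1.13 in pair 1 and 0.235 to 0.463 in pair 2. Counting error thus spanned no difference in pair 1 and did not in pair 2. At least a 2-fold lower level, as SOX5 had in pair 2 (log2 difference −1.56), was found in 2.07% of tested genes there. In pair 1 the share at least 2-fold lower was 0.97%, and SOX5, at −0.35, was not among these genes. The fold change rests largely on control 2. In fits without the pair block it was −0.43 without that library and −1.52 without control 1. With no filter on low counts SOX5 passed (log2 fold change −1.01, adjusted p = 0.00571 by edgeR), in a fit that called 5.68% of 25577 genes.

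SOX13, which binds the Wnt pathway factor TCF1 in mice, had 14.2 and 8.03 CPM in invasive 1 and 2, against 9.82 and 6.47 CPM in control 1 and 2. It was higher in the invasive library of each pair, yet the groups overlapped, because control 1 lay above invasive 2. The log2 fold change was 0.41 ± 0.19 with an adjusted p of 0.307 (edgeR). The invasive level was 1.45 times the control's in pair 1 (counting interval 1.18 to 1.78) and 1.24 times in pair 2 (0.938 to 1.64). In fits without the pair block, the fold change was −0.04 without invasive 1 and 0.77 without control 1. Such fits mix the difference between groups with that between pairs. SOX6, the partner of SOX5 in cartilage, had 6 and 2 counts in invasive 1 and 2 and 4 and 5 counts in control 1 and 2, too few to compare. In GENCODE v29, 219 bases of SOX6 exon overlap C11orf58 on the other strand, which had at least 2686 counts in each library. The libraries keep the strand, but the sources used here do not say whether the counting did.

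Promoters of 6 of the 10 members are in the RefSeq table of 300-base promoters (250 bases before the start site to 50 after, build GRCh38.p14), and those of the member with the largest difference, the best expressed one and the stem cell factor SOX2 are shown, read 5′ to 3′ on the gene's strand. Capitals mark the core SOX motif AACAAT or its reverse complement ATTGTT, searched on both strands. It occurred in 10.1% of the 35116 promoters of the table. SOX5 lies on the minus strand at chr12:24562442-24562741, SOX12 on the plus strand at chr20:325302-325601 and SOX2 on the plus strand at chr3:181711675-181711974.
SOX5: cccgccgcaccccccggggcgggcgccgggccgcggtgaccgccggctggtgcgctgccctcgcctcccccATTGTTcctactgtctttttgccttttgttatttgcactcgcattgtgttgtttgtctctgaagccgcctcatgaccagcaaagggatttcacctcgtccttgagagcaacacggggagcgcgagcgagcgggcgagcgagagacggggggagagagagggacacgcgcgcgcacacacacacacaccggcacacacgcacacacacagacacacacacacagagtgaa
SOX12: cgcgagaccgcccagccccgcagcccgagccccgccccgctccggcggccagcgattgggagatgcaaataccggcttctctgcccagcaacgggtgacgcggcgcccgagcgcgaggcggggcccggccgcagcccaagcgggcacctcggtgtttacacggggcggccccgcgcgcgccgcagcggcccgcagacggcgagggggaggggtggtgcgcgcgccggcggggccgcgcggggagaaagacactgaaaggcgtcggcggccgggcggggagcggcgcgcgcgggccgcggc
SOX2: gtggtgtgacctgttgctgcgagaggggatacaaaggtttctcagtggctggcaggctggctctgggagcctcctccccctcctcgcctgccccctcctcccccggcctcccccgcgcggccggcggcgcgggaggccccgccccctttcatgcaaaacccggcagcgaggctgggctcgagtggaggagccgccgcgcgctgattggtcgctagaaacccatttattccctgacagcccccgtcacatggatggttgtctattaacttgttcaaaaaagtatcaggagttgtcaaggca
The SOX5 window held 1 match, at position −179 from the start site, and the SOX12 and SOX2 windows held 0. All 3 are rich in G and C, at 63.7%, 80.3% and 63.3%, against a median of 58.7% over the table. The SOX12 window has 54 CpG dinucleotides, the SOX5 window 29 and the SOX2 window 20, against a median of 14. A letter match is no evidence of binding, and these RNA counts do not measure binding. The start site shown for SOX5 lies outside the interval that the count files give for the gene (chromosome 12, 23529500 to 23951032). GENCODE v29 extends SOX5 to 24562544, so its exons beyond 23951032 lie outside the gene as the count files give it. SOX12 starts at 325401 in the count files, inside the window shown, and at 325595, near the window's end, in GENCODE v29.

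In the SoxC group, SOX12 and SOX4 were past the filter and SOX11 was not. SOX12, a weak activator of the group in mice, had 21.9 and 20.4 CPM in invasive 1 and 2, against 18.6 and 19.0 CPM in control 1 and 2. The groups did not overlap, although they differed by little, with ratios of 1.17 in pair 1 (counting interval 1.005 to 1.37) and 1.07 in pair 2 (0.907 to 1.27). Means were 21.1 ± 1.03 CPM in invasive populations and 18.8 ± 0.29 CPM in controls (SD, n = 2 each), for a log2 fold change of 0.15 ± 0.13 with an adjusted p of 0.596 (edgeR). SOX4 is a TGF-beta target known to sustain SOX2 in glioma-initiating cells. It had 2.78 and 2.75 CPM in invasive 1 and 2 (43 and 38 counts), against 2.02 and 2.20 CPM in control 1 and 2 (36 and 34 counts). Both invasive libraries were above both controls, by less than counting error allows to resolve: the ratio was 1.38 in pair 1 (counting interval 0.863 to 2.21) and 1.25 in pair 2 (0.765 to 2.04). Its log2 fold change was 0.37 ± 0.29, adjusted p = 0.542 by edgeR. In GENCODE v29, 168 bases of the SOX4 exon overlap a gene on the other strand. SOX11, a factor of immature neurons, was listed with 0 counts in both libraries of pair 2. Without overlap between groups, SOX4 and SOX12 were higher and SOX5 lower, so 3 of 5 members were separated, against 43.4% of all tested genes (23.7% higher and 19.7% lower).

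**Figure D2:**
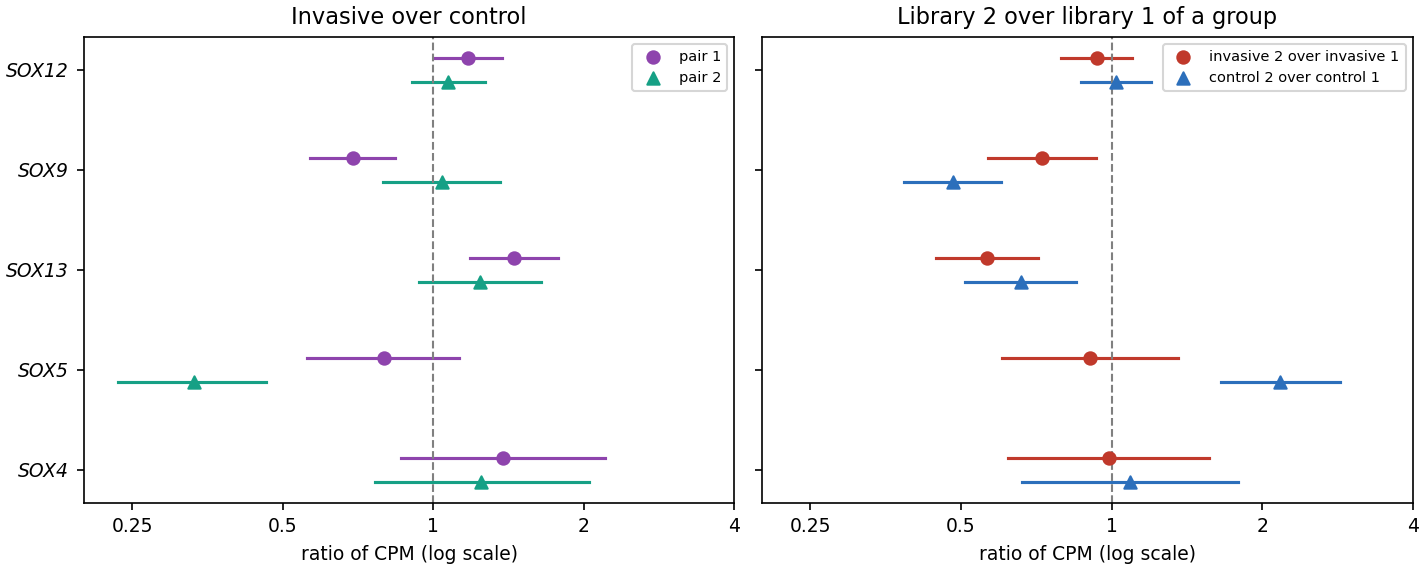
Ratio of CPM on a log scale with exact 95% counting intervals, for invasive over control within each pair (left) and for library 2 over library 1 within each group (right). The intervals cover counting error only, not variation between populations. Beyond counting error, SOX9 and SOX13 differ between libraries of the same group in both groups. SOX5 does so between the controls, with a ratio of 2.17.

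In the SoxE group only SOX9 was well measured. SOX9 drives cartilage formation and, in the nervous system, the change from neuron to glia production. It had 10.9 and 7.88 CPM in invasive 1 and 2 (168 and 109 counts), against 15.7 and 7.58 CPM in control 1 and 2 (280 and 117 counts). Control 1 was the highest library and the other 3 lay closer together. The invasive level was 0.691 of the control's in pair 1 (counting interval 0.567 to 0.840) and 1.04 of it in pair 2 (0.794 to 1.36). With 1 library of each group in a pair, this contrast between pairs has no test. Over both pairs the log2 fold change was −0.28 ± 0.22, with an adjusted p of 0.534 by edgeR. It was 0.30 without control 1, in a fit without the pair block. That fit mixes the difference between groups with that between pairs.

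SOX10, which sets oligodendrocyte and neural crest fate, had 0 and 1 counts in invasive 1 and 2 and 1 and 0 in control 1 and 2. Exons of SOX10 and of POLR2F, a subunit of RNA polymerase II that every cell uses, share 89 bases on opposite strands in GENCODE v29. POLR2F also had at most 2 counts in any library, so a low count at this locus is not read here as absence. SOX8, a relative with overlapping roles, had 0 and 1 counts in invasive 1 and 2 and 0 in each control. SOX2 had 0 counts in both invasive libraries and 1 and 0 in control 1 and 2. A count of 0 allows a level of up to 0.168 CPM in the deepest and 0.217 CPM in the shallowest library, the level of 3 counts. That limit covers counting error only. For SOX2 it applies to the 3 libraries without a count, and not to control 1. No exon of SOX2 overlaps another gene's exon in GENCODE v29, and SOX2-OT, the transcript that surrounds it, had at most 2 counts in any library.

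**Figure D3:**
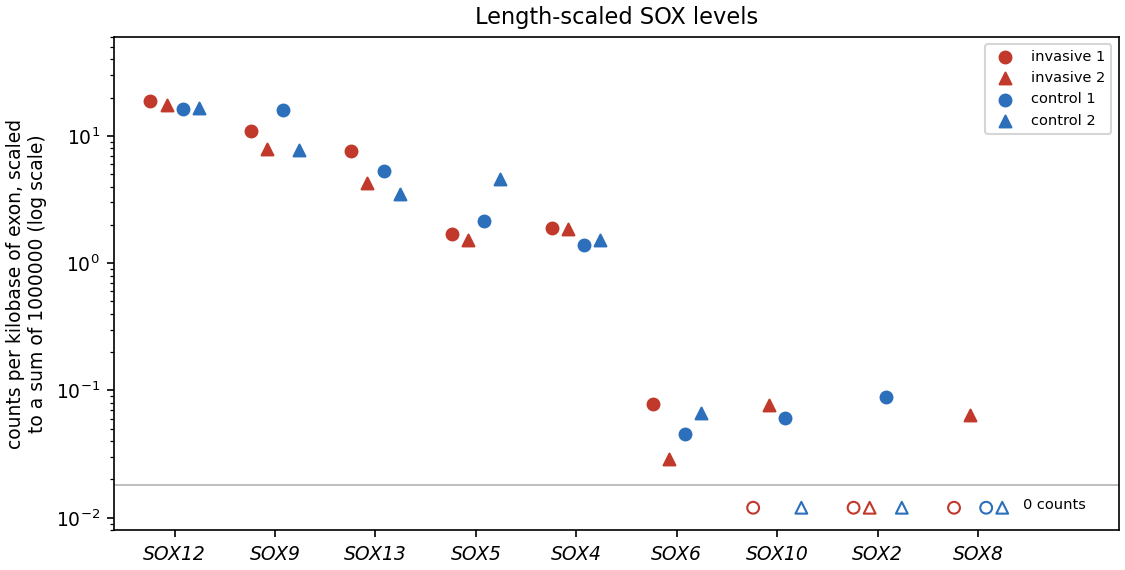
Length-scaled level (counts per kilobase of exon, scaled to a sum of 1000000 per library) on a log scale for the 9 SOX genes listed in all 4 libraries, with open symbols below the grey line for libraries with 0 counts. SOX12 is highest in every library, at 16.2 to 18.9, and the 4 genes on the right rest on at most 6 counts per library.

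Levels of different genes were compared per exon length, as counts per kilobase of exon rescaled to a sum of 1000000 in each library (GENCODE v29 exons within each gene's interval in the files). On this scale SOX12 was first in every library, with a length-scaled level of 18.9 and 17.5 in invasive 1 and 2 and 16.2 and 16.5 in control 1 and 2. SOX9 came second in each, with 11.03 and 7.94 in invasive 1 and 2 and 16.04 and 7.72 in control 1 and 2. In control 1 it was nearly level with SOX12. SOX13 came next at 7.66 and 4.29 in invasive 1 and 2 and 5.32 in control 1, but in control 2 its 3.50 stood below the 4.62 of SOX5. SOX4, with 1.90 and 1.86 in invasive 1 and 2 and 1.39 and 1.51 in control 1 and 2, was above SOX5 in the invasive libraries (1.69 and 1.52) and below it in the controls (2.13 and 4.62). Over the libraries, the ranges of SOX12, SOX9 and SOX13 did not overlap, but lay close: the lowest SOX12 value was 16.2 against a highest SOX9 value of 16.04, and the lowest SOX9 value 7.72 against a highest SOX13 value of 7.66. The range of SOX5 overlapped those of SOX13 and SOX4. No test of these neighbours was run. Even SOX12 reached only the 45.4th to 47.7th percentile of tested genes. SOX4 lay between the 8.74th and 10.3th.

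The summed level of all members differed more between pairs than between groups. The members together gave 53.9 and 42.7 CPM in invasive 1 and 2, against 51.2 and 45.9 CPM in control 1 and 2. Pair 2 was also compared with pair 1 in the same model. SOX13 had a log2 fold change of −0.72 ± 0.19 (pair 2 minus pair 1, unadjusted p = 0.00780, adjusted p = 0.203 by edgeR) and SOX9 had −0.77 ± 0.22 (unadjusted p = 0.0109, adjusted p = 0.224 by edgeR). SOX13 in invasive 2 was 0.564 of its level in invasive 1 (counting interval 0.445 to 0.712), and in control 2 it was 0.659 of that in control 1 (0.510 to 0.848). SOX9 stood at 0.726 (0.565 to 0.929) between the invasive libraries and 0.482 (0.385 to 0.6003) between the controls. Both genes were lower in pair 2 within each group. No member passed the adjusted threshold here (0.0984% of all tested genes did). DESeq2 called 0, against 0.602% of the genes to which it gave an adjusted p. By edgeR, 2 of the 5 had an unadjusted p under 0.05, both lower. Of all tested genes, 14.8% did in either direction and 7.58% were lower. Without a filter on low counts SOX9 and SOX13 passed (adjusted p = 0.00724 and 0.0202 by edgeR), in a fit that called 3.76% of genes. SOX12 and SOX4 had −0.04 ± 0.13 and 0.05 ± 0.29. The raw counts list 32100 genes for each library of pair 1 and 33485 for each of pair 2. What else differed between the pairs is not stated. A difference in handling or processing and a difference between populations therefore cannot be told apart.

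**Figure D4:**
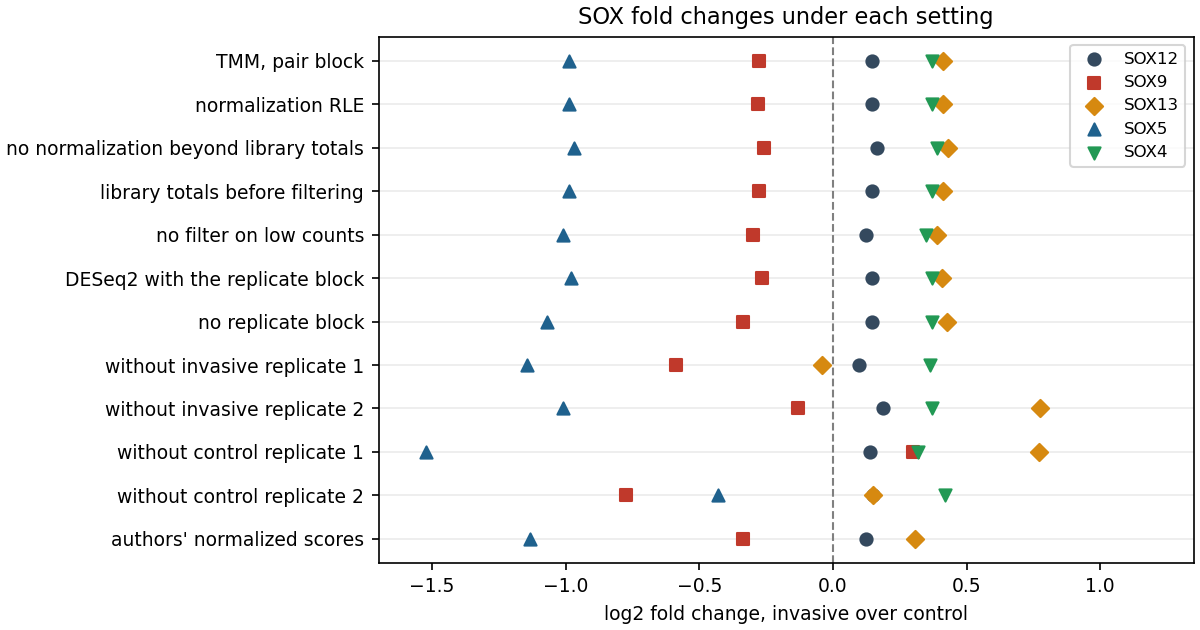
Log2 fold change of invasive over control for the 5 tested members under each setting, one row per setting. SOX5 stays below 0 in each row, from −1.52 without control 1 to −0.43 without control 2, while SOX9 and SOX13 each cross 0 in 1 row. Rows that leave out 1 library come from fits without the pair block.

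The library profile of SOX5 was compared with that of 12296 tested protein-coding genes outside the family, by the root-mean-square distance between log2 CPM centred on each gene's mean over the 4 libraries. The closest were KDR, a VEGF receptor (distance 0.09), ATP2B1, a plasma membrane calcium pump (0.09), and NRP2, a semaphorin and VEGF co-receptor (0.097), against a median distance of 0.634. KDR had 9.89 and 8.68 CPM in invasive 1 and 2, against 10.9 and 22.9 CPM in control 1 and 2. Like SOX5, each of these 3 was highest in control 2. They were picked for the smallest distances, so this likeness follows from the choice and is no support for the SOX5 pattern. NRP2 had 151.5 and 131.4 CPM in invasive 1 and 2, against 158.3 and 361.8 CPM in control 1 and 2. None passed the adjusted threshold (adjusted p = 0.288, 0.309 and 0.517 by edgeR for KDR, ATP2B1 and NRP2).

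The other genes of the family added little. SOX15 was the only other SOX gene past the filter, with 1.36 and 1.37 CPM in invasive 1 and 2, against 1.52 and 1.68 CPM in control 1 and 2. Its log2 fold change was −0.24 ± 0.35 (adjusted p = 0.754 by edgeR). SOX7, an endothelial factor, had 1 and 4 counts in invasive 1 and 2 and 4 and 5 in control 1 and 2. The other 7 of these 9 genes had under 10 counts in all.

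Genes that work with or under SOX2 in neural progenitors were measured as a list of 16, of which 7 were tested. None passed the adjusted threshold in either direction, 1 had an unadjusted p under 0.05 against 18.2% of all tested genes, and the median log2 fold change was −0.25. That gene was NES, the progenitor filament nestin, with 33.7 and 15.7 CPM in invasive 1 and 2, against 41.5 and 19.5 CPM in control 1 and 2. Its log2 fold change was −0.33 ± 0.12 (adjusted p = 0.229 by edgeR), and like SOX9 and SOX13 it was lower in pair 2 in both groups. The growth factor receptor EGFR had −0.29 ± 0.13, the Notch receptor NOTCH1 −0.25 ± 0.12 and the transcription factor PAX6 0.25 ± 0.13. OLIG2, a partner of SOX2 in glioblastoma, had 9 and 14 counts in invasive 1 and 2 and 31 and 13 in control 1 and 2, so that its groups differed in pair 1 and were level in pair 2.

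Of 16 cartilage genes under SOX9 with SOX5 and SOX6, 5 were tested, against 14231 of all 29387 genes, and none passed the adjusted threshold (median log2 fold change 0.17). COL27A1 and the ubiquitin ligase WWP2 were the best measured, with 36.6 and 25.5 CPM for COL27A1 in invasive 1 and 2, against 27.4 and 26.3 CPM in control 1 and 2. COL2A1, the main cartilage collagen, and ACAN, the proteoglycan aggrecan, had 0 counts in each library. COL11A1, a minor fibrillar collagen, had 1.10 and 1.59 CPM in invasive 1 and 2, against 0.842 and 0.389 CPM in control 1 and 2 (log2 fold change 1.08 ± 0.52, adjusted p = 0.326 by edgeR). COL27A1, COL9A2 and WWP2 had log2 fold changes of 0.17, 0.22 and −0.02.

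Glial and neural crest genes linked to SOX10 and SOX8 were a list of 18, with 7 tested and none past the adjusted threshold. The median was −0.14, and 1 gene in each direction had an unadjusted p under 0.05, against 18.2% of all tested genes. PMP22, a peripheral myelin protein, had 72.6 and 67.9 CPM in invasive 1 and 2, against 83.5 and 82.8 CPM in control 1 and 2 (log2 fold change −0.26 ± 0.09, adjusted p = 0.226 by edgeR). TFAP2A, a neural crest transcription factor, had 10.3 and 10.6 CPM in invasive 1 and 2, against 8.53 and 5.44 CPM in control 1 and 2 (0.58 ± 0.24, adjusted p = 0.265 by edgeR). MYRF, a transcription factor of myelination, had a log2 fold change of −0.43 ± 0.50 (adjusted p = 0.69 by edgeR).

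Genes linked to SOX4, SOX11 and SOX12 in neurons and tumours were a list of 10, with 8 tested, none past the adjusted threshold, a median of −0.03, and 2 with an unadjusted p under 0.05, both positive, against 18.2% of all tested genes in either direction. NRCAM, a neuronal adhesion molecule, had 1.81 and 5.71 CPM in invasive 1 and 2, against 0.898 and 1.68 CPM in control 1 and 2 (log2 fold change 1.43 ± 0.35, adjusted p = 0.130 by edgeR). MAP2, a microtubule protein of neurons, had 31.0 and 40.0 CPM in invasive 1 and 2, against 23.4 and 16.2 CPM in control 1 and 2 (0.83 ± 0.24, adjusted p = 0.208 by edgeR). For both genes every invasive library was above every control, as for 23.7% of all tested genes. EZH2, a histone methyltransferase, and the semaphorin SEMA3C had −0.18 ± 0.10 and 0.12 ± 0.10.

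Brain slices hold other cells that express SOX genes. Of 6 oligodendrocyte markers 5 were listed. Their summed level was 0.388 and 0.217 CPM in invasive 1 and 2, against 1.12 and 0.583 CPM in control 1 and 2, with MOG at 0 in each library. Most of it was MBP, with 5 and 3 counts in invasive 1 and 2 and 19 and 6 in control 1 and 2. The 5 endothelial markers summed to 3.62 and 3.18 CPM in invasive 1 and 2, against 3.76 and 1.49 CPM in control 1 and 2, with CLDN5 at 0 in each library. Astrocyte markers gave 286.5 and 265.2 CPM in invasive 1 and 2, against 302.7 and 220.3 CPM in control 1 and 2, nearly all from GJA1 and SLC1A3, with AQP4 at 0 in each library. The 6 neuronal markers summed to 62.5 and 52.7 CPM in invasive 1 and 2, against 57.2 and 59.2 CPM in control 1 and 2, nearly all from SNAP25, GAD1 and SYT1, while RBFOX3 had at most 2 counts in any library. The 5 microglial markers gave 18.2 and 10.2 CPM in invasive 1 and 2, against 21.4 and 10.8 CPM in control 1 and 2, nearly all from CSF1R, with P2RY12 at 0 in each library. The part of slice cells in the SOX values was not tested. Reads were counted on human genes and the species of the slices is not stated. How far these markers would count slice cells is therefore not known. In such bulk RNA, fewer cells expressing a gene and less of its RNA per cell cannot be told apart.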

How the data were processed

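The authors deposited raw read counts per Ensembl gene, whole numbers and not normalized, per the file headers. They also deposited normalized values rounded to whole numbers, a score whose method the sources used here do not give, for 10252 genes in pair 2. The submitters' processing notes name TopHat2 2.0.12, Bowtie, bcl2fastq 1.8.4, DESeq2 and HTSeq, and the GRCh38 build, with no role stated. Libraries were strand-specific, per the labels' protocols.

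CPM were computed from total counts. Genes were filtered with filterByExpr by group (minimum count 10, minimum total 15). Groups were compared by edgeR's two-sided quasi-likelihood test (TMM factors, library sizes recomputed after the filter, robust prior, pair as block; edgeR 4.0.16, limma 3.58.1, DESeq2 1.42.0, R 4.3.3), adjusted by Benjamini-Hochberg over 14231 genes. It has 1 residual degree of freedom. Standard errors are the log2 fold change over the square root of F. Within-pair log2 differences used a prior count of 2 and have no test. Pairing follows the design text. Deviations of same-numbered libraries correlated across genes (r 0.283). Libraries of a group were not duplicates (chi-square per degree of freedom 34.5 for controls, 21.5 for invasive populations). Each population has 1 library, so p-values measure only the spread between these samples.

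Exon lengths came from GENCODE v29 for 28847 of 29387 genes. The script was tested on simulated data. Alternatives changed the normalization, test, filter, block, libraries and values. Members and lists were chosen with earlier results of these data known. The members and every other SOX gene with at least 10 counts are named, and per list the tested genes with the smallest p, up to 4, of which 1 is not reported here. OLIG2, genes at 0 counts and the cell type markers were named after their values were seen. Lists are described by counts and medians, with no set test.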

Additional observations from a re-analysis of the deposited data

How the results depend on the processing

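The counts of members and genes called moved with the settings, while the fold changes of SOX4, SOX5 and SOX12 kept their signs in each fit. With no filter on low counts 1 member passed between invasive and control populations and 2 between the pairs, against 0 and 0. Over all genes, 34 were higher and 5 lower. RLE factors gave 80 and 9, no normalization beyond library totals 368 and 91, no filter 760 and 693, and DESeq2 with the replicate block 142 and 29. With no replicate block 2 were higher and 0 lower (SOX5 log2 fold change −1.07, adjusted p = 0.39 by edgeR). Leaving out 1 library gave 3 to 55 higher and 0 to 61 lower genes. Those fits have no block, and a lone library is assumed to vary like the other group. The cause of these shifts was not tested. SOX9 ranged from −0.78 to 0.30 and SOX13 from −0.043 to 0.77 when 1 library was left out. Of 65 recomputed values of single members with a test, 60 kept their sign and their side of the threshold, 3 passed only without the filter and 2 changed sign. The other 14, which have no test, kept their sign. With the authors' normalized scores SOX5, SOX9, SOX12 and SOX13 had mean log2 differences of −1.14, −0.34, 0.12 and 0.31, and SOX4 was not listed for pair 2. On these scores SOX9 was lower in the invasive library of both pairs, at −0.62 in pair 1 and −0.05 in pair 2. The counts gave 0.05 for SOX9 in pair 2. Using library totals before filtering was added after seeing the data and changed no call of a member. Depth limits SOX2, SOX6, SOX8, SOX10 and SOX11, which have at most 6 counts in a library.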
